A study of Homo sapiens with 4 samples.

Results

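Genes of the proteasome, its activators and its assembly factors were taken as all genes whose symbol is PSMA, PSMB, PSMC, PSMD, PSME, PSMF or PSMG followed by a number and which are listed in all 4 tables. The rule gave 33 genes of the 8568 transcripts listed in all 4 tables, where each gene is represented by 1 transcript. The study asked where ribosomes sit on mRNAs when an aminoglycoside makes them pass stop codons. Ribosome profiling libraries were prepared from cultures of HEK293T (a line of human embryonic kidney origin with the large T antigen of a simian virus), and the groups are 2 replicates (A and B) of cells without drug and 2 replicates of cells given G418 at 500 µg/mL. G418 is an aminoglycoside and acts on the decoding site of ribosomes, all cultures were held for 24 hr, and lysis in cycloheximide was common to both groups. The study describes the replicates as biological, all from 1 cell line. Ribosome protected fragments (RPFs) were counted by the authors on the CDS and on both UTRs of a transcript.

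The proteasome degrades proteins that carry ubiquitin chains. Its core particle is a barrel of α and β rings with the proteolytic sites inside. The regulatory particle consists of a base, whose ATPases unfold substrates and feed them into the barrel, and a lid, which removes ubiquitin. Dedicated chaperones assemble the core and the base, and activators such as PSME1 and PSME3 bind the core in place of the regulatory particle. In many cell types the genes of the proteasome are transcribed together under the transcription factor NFE2L1. When a ribosome reads through the normal termination codon (NTC), it goes on in frame until the first 3′UTR termination codon (3′TC), and the added amino acids form a C-terminal extension.

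The libraries held 2440204 to 6082600 RPFs on mRNAs, and the shallowest was untreated replicate B. All 5 markers of HEK293T cells (VIM, KRT8, KRT18, NEFM and NEFL) were listed in every table. KRT8 was the lowest of them, with 8 to 27 CDS counts per library (1.45 to 2.13 RPKM). Of 7 markers of other cell types, only the collagen gene COL1A1 was listed in every table, at 3.59 to 5.54 RPKM, above KRT8. Of 4 interferon or immune genes none was listed in all 4 tables. VIM was lower with G418 (log2 fold change -0.32 ± 0.08 SE, adjusted p = 0.00902, edgeR's quasi-likelihood test). It was not called with scaling to library totals alone or without either G418 replicate. The part of this change in the results below was not tested. In RPF counts from bulk lysates, fewer cells of a type, less RNA per cell and fewer ribosomes per mRNA cannot be told apart.

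The sequence around the NTC is shown for the proteasome genes with the highest and the lowest readthrough in G418-treated cells, and for PSMD6, which was chosen after its values were seen. Each line gives 9 nt before the NTC, the NTC and 12 nt after it, from GENCODE version 44 on hg38. Capitals mark the NTC and the +4 nucleotide.
PSMC2, ATPase, chr7:103368052-103368054, plus strand: acauacaacUGAAcccugaaggcu
PSMD9, base assembly chaperone, chr12:121916309-121916311, plus strand: cugcaaagaUGAUugucccugggg
PSMA4, α ring, chr15:78548942-78548944, plus strand: aaggauaaaUAGAaucagagauuu
PSMG3, core assembly chaperone, chr7:1567698-1567700, minus strand: cagguguggUGACcuggaggcagc
PSMB5, β ring, chr14:23026089-23026091, minus strand: ucuacccccUGAAagaggguggau
PSMD6, lid, chr3:64010668-64010670, minus strand: auuaauaugUAAAgccauguaacu
PSMD2, base scaffold, chr3:184308888-184308890, plus strand: uaugaucucUAAGugaccaccagg
PSMA6, α ring, chr14:35317304-35317306, plus strand: gagagagacUAAAcauugucguua
PSMB3, β ring, chr17:38764165-38764167, plus strand: cgaauggacUAACccuguucccag
PSMD11, lid, chr17:32480629-32480631, plus strand: aaacugacaUAGGugagugcuggc
PSMD8, the other gene among the 6 highest, ends in UGA. Of the first 5 printed, 4 ended in UGA and PSMA4 ended in UAG. The other 5 ended in UAA, except PSMD11, which ended in UAG. These genes were picked by their scores and do not stand for the group. Among proteasome genes with enough mRNA reads, the median readthrough score with G418 (explained below) was 0.169 for 12 UAA genes and 0.160 for 15 UGA genes. Over all 33 genes, 13 ended in UAA (39.4%), 4 in UAG (12.1%) and 16 in UGA (48.5%), and over all 8568 transcripts these shares were 27.7%, 22.02% and 50.3%.

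Most constitutive subunits of the core particle had a higher ribosome density on the CDS than the other genes, and the 6 lowest genes were PSMB9 and the assembly chaperones other than PSMD10. Densities are in RPKM, the authors' RPF counts scaled to library size and to kilobases of CDS, so that genes of different length can be compared. In untreated cells the 5 α-ring genes lay between 283 (PSMA6) and 1029 RPKM (PSMA4), and the 5 constitutive β-ring genes between 457 (PSMB7) and 898 RPKM (PSMB1). The median over all transcripts was 16.8 RPKM. PSMA4, a structural subunit of the α ring, was at 1130.1 and 927 in untreated and 975 and 889.7 in G418-treated cells. PSMB1, a β-ring subunit without a proteolytic site, was at 977 and 819 in untreated and 896 and 794 in G418-treated cells. For both genes replicate A of each condition was the higher one, and the ranges of the conditions overlapped in RPKM. In the TMM-scaled counts used for the test below they did not, with PSMA4 at 1368 and 1221 in untreated and 1128 and 1108 in G418-treated cells and PSMB1, in the same unit (CPM), at 1089 and 993 in untreated and 954 and 910.3 in G418-treated cells.

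The ATPases of the base formed a narrow band below the rings, from 131 (PSMC6) to 206 RPKM (PSMC2) in untreated cells. PSMC2, the highest of these 5 ATPases, was, in RPKM, at 216 and 196 in untreated and 193 and 166 in G418-treated cells. The large scaffold subunits PSMD1 and PSMD2 of the base averaged 117 and 141 RPKM. The ubiquitin receptor PSMD4 was, in RPKM, at 287 and 275 in untreated and 267 and 236 in G418-treated cells. Lid subunits averaged 152 (PSMD14, the deubiquitinase) to 253 RPKM (PSMD6), and PSMD6 was at 275 and 232 in untreated and 240.0 and 220.2 in G418-treated cells. The ATPases and the lid thus overlapped in their levels, and neighbours within each differed by less than their spread over replicates in several cases, such as PSMC2 at 206 ± 14.1 and PSMC3 at 201 ± 4.35 RPKM (SD, n = 2).

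The factors that are not part of the finished particle ranged more widely. PSMD10, a base chaperone also known as gankyrin, averaged 224 RPKM in untreated cells, while its fellow chaperones PSMD9 and PSMD5 averaged 59.2 and 7.89. The core chaperones PSMG2, PSMG3 and PSMG4 averaged 60.7, 62.9 and 40.7 RPKM, so that PSMG2 and PSMG3 differed by less than their SDs of 6.19 and 4.12. PSME3, the nuclear activator, averaged 214 RPKM and PSME1, a subunit of the cytoplasmic activator, 75.3. PSMB9, a proteolytic subunit of the immunoproteasome, had 5 to 10 counts per library (1.14 to 2.08 RPKM) and was the lowest of the 33 genes.

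**Figure D1:**
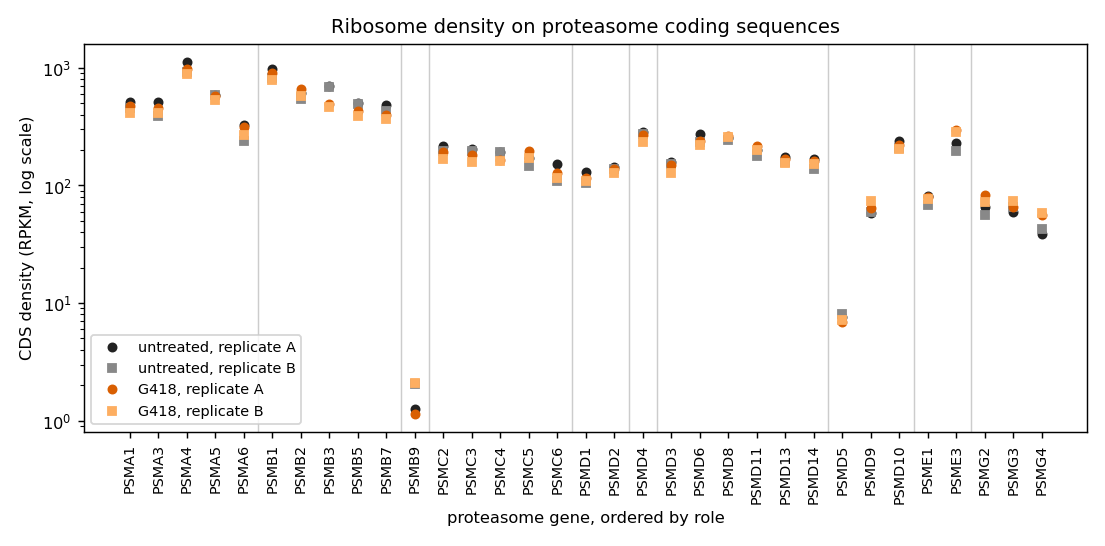
Ribosome density on the CDS (RPKM, log axis) of the 33 proteasome genes in each of the 4 libraries, ordered by role, with grey lines between roles. The mean untreated levels of the α-ring and constitutive β-ring genes lie above those of the other roles, though PSMA6 at 283 RPKM is close to PSMD4 at 281, and PSMB9 lies lowest.

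The first comparison asked whether ribosome counts on the CDS changed with G418. Of the 33 genes tested, 6 were lower and 1 was higher at an adjusted p below 0.05 (edgeR's quasi-likelihood test on the deposited counts, Benjamini-Hochberg adjusted over all 8494 transcripts tested). Over all transcripts, 3.21% were lower and 5.31% higher. The median log2 fold change was -0.16 over the proteasome genes and 0.00 over all transcripts, and 25 of the 33 genes were below 0. At an unadjusted p below 0.05, 11 were lower and 3 higher, beside 10.1% and 12.7% of all transcripts. DESeq2 called 4 lower and PSME3 higher, beside 1.65% and 1.33% of all transcripts. The calls rested on the libraries included. Without untreated replicate A or B, 11 or 18 genes were lower, beside 9.42% or 12.8% of all transcripts, so that the calls over all transcripts rose as well. Without G418 replicate A or B, only PSMB3 was lower and none was higher (1 gene higher at an unadjusted p below 0.05 in each), beside 0.176% or 0.188% of all transcripts lower. Scaling to library totals alone shifted the median of all transcripts to 0.11 and that of the proteasome genes to -0.06, with 2 genes lower (PSMB3 and PSMB5), 2 higher (PSME3 and PSMG2) and 20 of 33 below 0, beside 1.41% lower and 10.4% higher over all transcripts.

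All 6 lower genes belonged to the β ring or to the ATPases of the base. Values are CDS counts scaled to library size with TMM factors (CPM). PSMB3, a β-ring subunit without a proteolytic site, was at 665 and 708 in untreated and 445 and 448 in G418-treated cells, with a log2 fold change of -0.62 ± 0.08 (SE, adjusted p = 2.50e-05, edgeR). PSMB5, which holds the chymotrypsin-like site, was at 609 and 655 in untreated and 498 and 489 in G418-treated cells (-0.35 ± 0.08, adjusted p = 0.00631, edgeR). PSMB7, which holds the trypsin-like site, was at 624 and 602 in untreated and 489 and 488 in G418-treated cells (-0.33 ± 0.08, adjusted p = 0.0105, edgeR). In each of the 3 genes both treated libraries lay below both untreated ones. The same held for genes that were not called, such as PSMB1 and PSMD13. The share of all transcripts with such a separation of CDS counts was not counted. The other constitutive β genes did not pass the test, and PSMB1 had a log2 fold change of -0.16 and PSMB2 of 0.04.

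Among the 5 ATPases, which belong to the ring that unfolds substrates, 3 were lower. PSMC3 was, in CPM, at 422 and 445 in untreated and 357 and 339 in G418-treated cells (-0.31 ± 0.09, adjusted p = 0.0218, edgeR). PSMC4 was, in CPM, at 376 and 408 in untreated and 311 and 324 in G418-treated cells (-0.30 ± 0.09, adjusted p = 0.0318, edgeR). PSMC2 was, in CPM, at 441 and 435 in untreated and 376 and 349 in G418-treated cells (-0.27 ± 0.09, adjusted p = 0.0459, edgeR). Again no treated library reached an untreated one. DESeq2 called PSMC3 but neither PSMC2 nor PSMC4. PSMC6 and PSMC5 did not pass, with log2 fold changes of -0.18 and 0.11.

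PSME3 was the gene that rose. It was, in CPM, at 283 and 264 in untreated and 351 and 360.2 in G418-treated cells (0.37 ± 0.09, adjusted p = 0.00705, edgeR), and both treated libraries lay above both untreated ones. Treated libraries also lay above the untreated ones for PSMC5 and PSMD11, which were not called. PSME3 forms a ring of its own in the nucleus and lets the core degrade some proteins without ubiquitin. The related PSME1 was, in CPM, at 94.3 and 86.3 in untreated and 88.5 and 91.2 in G418-treated cells (-0.02 ± 0.11) and its groups overlapped.

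The remaining roles held no gene past the threshold by edgeR's test with TMM factors and no replicate block, nor by DESeq2. With the replicate letter as a block, PSMD3 and PSMD4 were lower too (adjusted p = 0.0429 and 0.0450, edgeR), beside 5.32% of all transcripts. The α ring had log2 fold changes from -0.22 (PSMA1) to -0.04 (PSMA6), with 2 of 5 lower at an unadjusted p below 0.05. The 6 lid genes ranged from -0.24 (PSMD3) to 0.07 (PSMD11), with 2 lower at that level. PSMD4 was, in CPM, at 508 and 529 in untreated and 452 and 429 in G418-treated cells, with a log2 fold change of -0.23 ± 0.09 with an adjusted p of 0.0868 (edgeR). The scaffold genes PSMD1 and PSMD2 were at -0.14 and -0.16 and the base chaperones between -0.22 (PSMD5) and 0.16 (PSMD9), none past an unadjusted p of 0.05. All 3 core chaperones had values above 0, from 0.10 (PSMG3) to 0.45 (PSMG4), and 2 were higher at an unadjusted p below 0.05. PSMB9 was at -0.06 ± 0.57 and too low to resolve a change.

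Summed over the 33 genes, CDS counts were 13334 and 12939 CPM (without TMM factors) in untreated and 12624 and 12539 in G418-treated cells. The means were 13137 ± 279 and 12581 ± 60.6 (SD, n = 2), a ratio of 0.958, and the treated libraries lay below the untreated ones. Here no test was made over the genes. PSMA4 held the most counts of the group. Without it the means were 11888 and 11423.

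**Figure D2:**
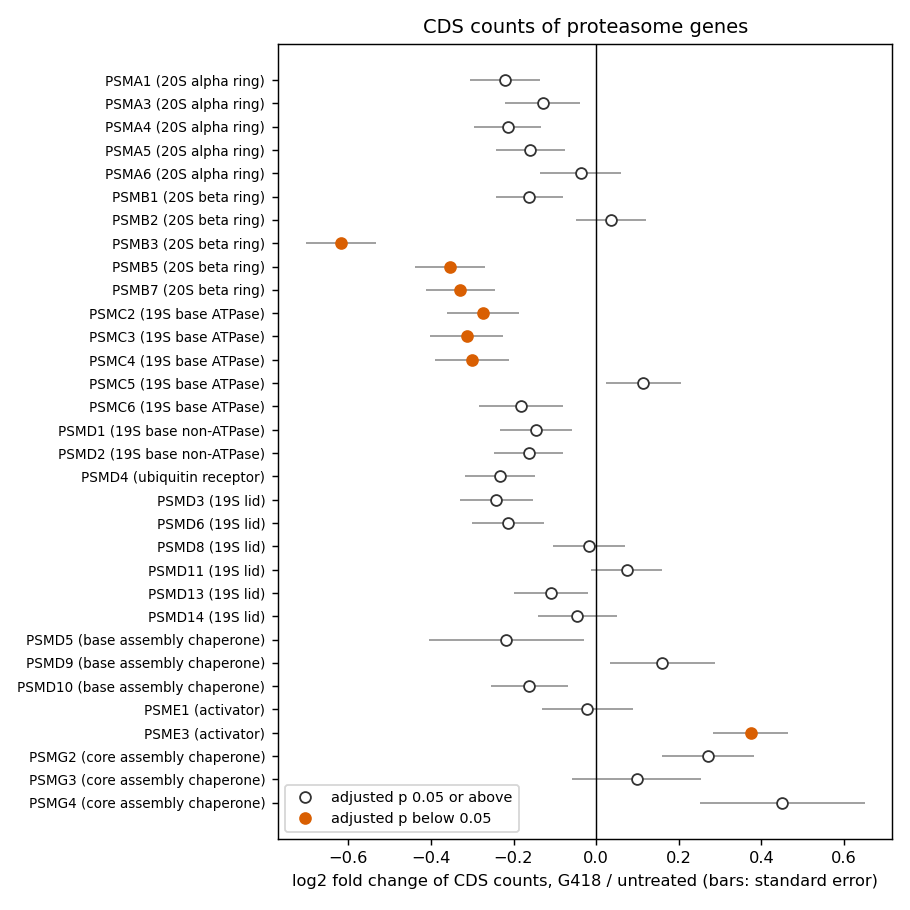
Fitted log2 fold change of CDS counts, G418 over untreated, for 32 of the 33 proteasome genes, with bars for 1 standard error and filled points for an adjusted p below 0.05 (PSMB9, at -0.06 ± 0.57, is not drawn). The filled points are 3 β-ring genes and 3 ATPases to the left of 0, with PSMB3 farthest at -0.62, and PSME3 to the right at 0.37.

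The second comparison asked how readthrough of the NTC changed. The ribosome readthrough score (RRTS) compares the RPF density of the extension, which ends at the first in-frame 3′TC, with that of the CDS as a ratio, and leaves out 6 nt after the NTC. Of the 33 genes, 31 had enough mRNA reads in each condition for the study's minimum (PSMB9 and PSMG4 did not), and 26 of these had at least 10 reads in the extension over the 4 libraries. RRTS rose in 22 of the 26 tested genes and fell in none (none also at an unadjusted p below 0.05 and with DESeq2), with edgeR's quasi-likelihood test on reads of the extension relative to CDS reads. Over all 2827 transcripts tested, 82.6% rose. The minimum of extension reads was summed over both conditions, so a gene could pass it through its G418 reads alone. PSMG3, for example, had 0 reads in untreated and 30 in G418-treated cells. Both shares thus depend in part on this minimum. The median log2 fold change was 3.10 over the proteasome genes and 3.18 over all transcripts. At this minimum the group thus stood near the background in both respects. With no minimum of extension reads, 23 of 30 proteasome genes rose, beside 44.9% of all transcripts. With a minimum of 5 reads, 24 of 30 rose, beside 66.3%. Over the whole 3′UTR, 27 of 30 rose, beside 70.3%. With a minimum of 20 reads the order turned, with 20 of 23 beside 92.4%. DESeq2 called 16 of the 26 higher and did not call PSMA6, PSMC2, PSMD2, PSMD13, PSME1 and PSME3, and it called 49.8% of all transcripts higher. Leaving out a library gave fewer calls, both here and over all transcripts, where fewer also reached the minima of reads. The medians were then 3.20 to 3.91 over the proteasome genes tested and 3.21 to 4.79 over all transcripts.

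Every tested α-ring gene rose. PSMA4 had 1 and 3 reads in its extension of 63 nt in untreated cells and 222 and 173 in G418-treated cells. Its RRTS was 0.00157 and 0.0132 in untreated and 0.431 and 0.402 in G418-treated cells, with a log2 fold change of 6.40 ± 0.33 (adjusted p = 6.57e-81, edgeR). From pooled reads the score rose 90.2-fold (95% interval 35.0 to 333, counting error only). The log2 fold change was 4.95 without untreated replicate A and 7.85 without untreated replicate B, each of which held few reads. PSMA4 thus combined the highest CDS density of the group with one of its highest scores, and among 401 transcripts that share its stop sequence UAGA its score with G418 was at percentile 87.5. PSMA6 and PSMA5 had low scores. PSMA6 had 2 and 0 reads in untreated and 7 and 5 in G418-treated cells, and its RRTS was 0.0143 and 0 in untreated and 0.0552 and 0.0506 in G418-treated cells (2.17 ± 1.07, adjusted p = 0.0395, edgeR). Without untreated replicate A or B the adjusted p was 0.0694 or 0.0728. PSMA5 had an RRTS of 0.00969 and 0.0224 in untreated and 0.0955 and 0.0747 in G418-treated cells (2.59 ± 0.73, adjusted p = 5.81e-04, edgeR, and 0.0553 without untreated replicate A). In both genes the treated libraries were above the untreated ones.

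In the β ring, 4 of 5 genes rose. PSMB5 had an RRTS of 0.0199 and 0.0116 in untreated and 0.292 and 0.312 in G418-treated cells (4.05 ± 0.48, adjusted p = 1.39e-16, edgeR). PSMB2, a subunit without a proteolytic site, had an RRTS of 0.0512 and 0.0264 in untreated and 0.257 and 0.305 in G418-treated cells (2.64 ± 0.39, adjusted p = 5.45e-11, edgeR). PSMB3, whose CDS counts fell most, had 8 and 2 extension reads in untreated and 3 and 10 in G418-treated cells. Its RRTS of 0.0352 and 0.0206 in untreated and 0.0201 and 0.0781 in G418-treated cells gave overlapping groups and no call (0.60 ± 0.71, adjusted p = 0.403, edgeR), and without G418 replicate B the log2 fold change was -0.60 (adjusted p = 0.628, edgeR). PSMB2, PSMB3 and PSMA3 share the stop sequence UAAC, and PSMB3 was at percentile 14.2 of the 358 transcripts with it, PSMB2 at 60.3 and PSMA3 at 58.7.

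Of the 4 ATPases tested, PSMC2, PSMC3 and PSMC4 rose. PSMC2 had the highest score of the group with G418, 0.138 and 0.0874 in untreated and 0.536 and 0.418 in G418-treated cells (1.92 ± 0.76, adjusted p = 0.0132, edgeR, with 0.0645 without untreated replicate A and 0.111 without G418 replicate A). Only 15 nt of its extension were counted, with 4 and 1 reads in untreated and 13 and 8 in G418-treated cells, so that its pooled score of 0.484 has an interval of 0.300 to 0.740. PSMC5 had 2 and 1 reads in untreated and 5 and 6 in G418-treated cells, and its change of 1.34 ± 0.99 was not called (adjusted p = 0.175, edgeR). The scaffold subunits both rose. PSMD1 had an RRTS of 0.0432 and 0.0410 in untreated and 0.208 and 0.342 in G418-treated cells (2.60 ± 0.73, adjusted p = 6.37e-04, edgeR), and PSMD2 one of 0.0130 and 0 in untreated and 0.0798 and 0.0595 in G418-treated cells (2.81 ± 0.97, adjusted p = 0.00414, edgeR). Both end in UAAG, but the pooled score of PSMD1 with G418 was 0.270 (0.181 to 0.388) and that of PSMD2 0.0704 (0.0417 to 0.111), intervals that do not overlap.

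The lid held high and low scores. PSMD8 had 3 and 1 extension reads in untreated and 67 and 55 in G418-treated cells, with an RRTS of 0.0200 and 0.0160 in untreated and 0.463 and 0.425 in G418-treated cells (4.49 ± 0.47, adjusted p = 8.80e-21, edgeR). PSMD3 has the longest counted extension of the group, 342 nt, and its RRTS was 0.00411 and 0.00491 in untreated and 0.0768 and 0.0891 in G418-treated cells (4.14 ± 0.60, adjusted p = 1.53e-11, edgeR). PSMD13 rose as well, from a pooled 0.0162 to 0.142. PSMD11, the lowest with G418 among the tested genes, had 3 and 5 reads in untreated and 7 and 8 in G418-treated cells. Its RRTS was 0.0131 and 0.0559 in untreated and 0.0296 and 0.0407 in G418-treated cells and its groups overlapped (0.43 ± 0.73, adjusted p = 0.562, edgeR, and -0.68 with adjusted p = 0.434 without untreated replicate A).

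PSMD6, another lid subunit, already had reads after its NTC without drug. Its extension held 20 and 9 reads in untreated cells and 21 and 22 in G418-treated cells. The RRTS was 0.0970 and 0.119 in untreated and 0.124 and 0.155 in G418-treated cells. The treated libraries lay above the untreated ones, but by little. The pooled score rose 1.34-fold with an interval of 0.821 to 2.23, and the change was not called (0.42 ± 0.38, adjusted p = 0.280, edgeR). Among the 698 transcripts with the stop sequence UAAA, PSMD6 was at percentile 88.5 without drug and at 57.2 with G418. The median score of these transcripts was 0 without drug and 0.120 with G418.

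The 3 assembly chaperones and both activators with enough extension reads rose by edgeR, but neither activator was called by DESeq2 (adjusted p = 0.0853 and 0.110) or without untreated replicate A (adjusted p = 0.0641 and 0.178 by edgeR). PSMD9 had 1 and 0 extension reads in untreated and 24 and 17 in G418-treated cells, with an RRTS of 0.0221 and 0 in untreated and 0.511 and 0.347 in G418-treated cells (4.56 ± 0.92, adjusted p = 8.20e-07, edgeR). PSMG3 had 0 reads in both untreated libraries and 19 and 11 in the treated ones, with an RRTS of 0 and 0 in untreated and 0.475 and 0.265 in G418-treated cells (adjusted p = 4.41e-06, edgeR). Against 3 reads taken as the limit over both untreated libraries, its score was at least 7.09-fold higher with G418. PSMD10 rose from a pooled 0.00706 to 0.202, PSME1 from 0.0149 to 0.106 and PSME3 from 0.0148 to 0.160. The 5 genes with fewer than 10 extension reads were PSMD14, PSMC6, PSMG2, PSMD4 and PSMD5. PSMD14, PSMC6 and PSMG2 had no extension read in untreated cells and 8, 6 and 5 with G418. With a minimum of 5 reads PSMC6 and PSMD14 were called higher by edgeR, and PSMG2 was not called (adjusted p = 0.0867, edgeR). Over the whole 3′UTR PSMG2 was called higher (adjusted p = 5.30e-04, edgeR). All 8 reads of PSMD14 came from G418 replicate B. PSMD5 had no extension read in any library.

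**Figure D3:**
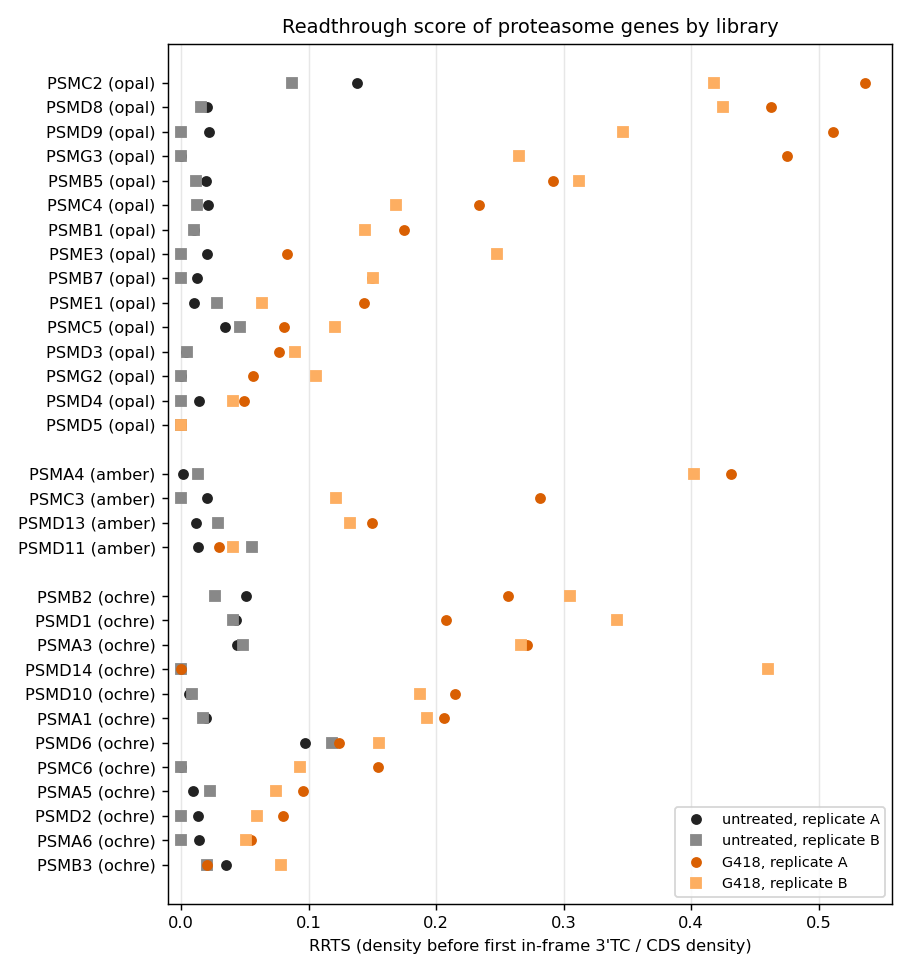
RRTS (a ratio of densities) of the 31 proteasome genes with enough mRNA reads in each condition, in each of the 4 libraries, sorted within stop codons (ochre is UAA, amber is UAG, opal is UGA). Most genes have black and grey points near 0 and orange points to the right of them, PSMC2, PSMD8, PSMD9 and PSMA4 with both orange points at 0.347 or more, while for PSMB3 and PSMD11 the colours overlap and for PSMD6 all 4 points lie between 0.0970 and 0.155.

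The aggregate RRTS divides the summed extension reads by the reads the same extensions would hold at the CDS density of each gene. For the 31 proteasome genes it was 1.90% and 1.93% of the CDS density in untreated and 19.8% and 19.1% in G418-treated cells. The means were 1.92% ± 0.0252 and 19.4% ± 0.549 (SD, n = 2), a ratio of 10.1. All 6509 transcripts with the same minimum of reads gave 1.90% ± 0.133 and 15.4% ± 0.525, a ratio of 8.13. The untreated values of both sets lay within their spread, and the treated values of the proteasome genes lay above those of all transcripts. Without PSMA4, which supplied the most extension reads, the proteasome genes gave 2.07% and 16.7%. The median over genes of the score from pooled G418 reads was 0.160 over the proteasome genes and 0.207 over all transcripts, so that the order of the 2 sets depends on the summary, and no test was made over the genes.

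By stop codon, UAA genes of the proteasome had a higher and UGA genes a lower aggregate with G418 than all transcripts with the same stop codon, and for UAG genes the direction rested on PSMA4. The 12 UAA genes went from 3.08% ± 0.189 to 16.6% ± 0.900, and all 1852 UAA transcripts from 1.46% ± 0.191 to 8.91% ± 0.448. PSMD6 supplied 20 of the 63 and 9 of the 22 extension reads of the UAA genes in untreated cells. The 4 UAG genes went from 1.48% ± 1.15 to 27.5% ± 2.03, and all 1414 UAG transcripts from 1.66% ± 0.140 to 15.0% ± 0.381. Here PSMA4 alone supplied 222 of the 264 and 173 of the 198 reads with G418. Without it the other 3 UAG genes (PSMC3, PSMD11 and PSMD13) were at 9.05% ± 2.11 with G418, below all UAG transcripts. The 15 UGA genes went from 1.20% ± 0.254 to 18.3% ± 1.05, and all 3243 UGA transcripts from 2.48% ± 0.0645 to 21.99% ± 0.657 (SD, n = 2 for each). Leaving out the gene with the most extension reads turned the direction neither for UAA nor for UGA genes, with 15.1% for UAA without PSMA3 and 19.3% for UGA without PSMB1. These omissions were chosen after the data were seen.

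**Figure D4:**
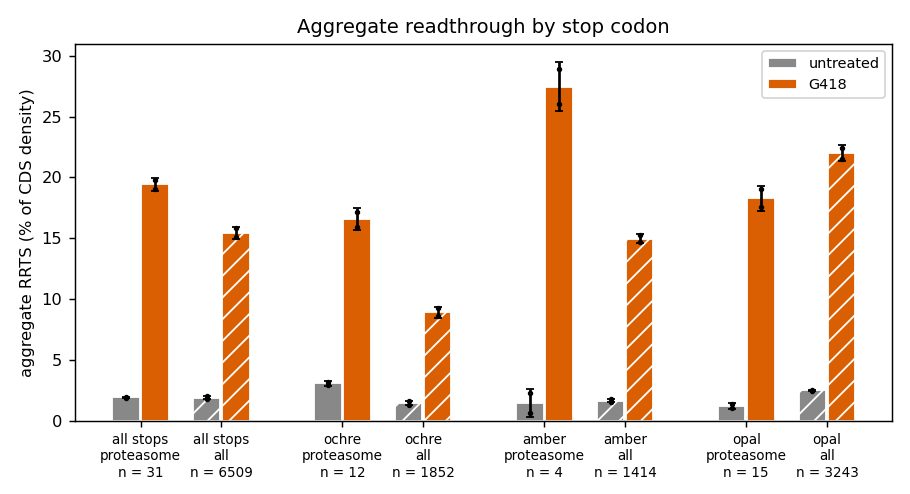
Aggregate RRTS (percent of CDS density) of proteasome genes (plain bars) and of all transcripts (hatched bars), by stop codon (ochre is UAA, amber is UAG, opal is UGA). Bars are means, error bars the SD over 2 replicates and dots the replicates, and the tallest bar is that of the 4 amber proteasome genes at 27.5%, most of whose reads come from PSMA4.

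The third comparison asked whether ribosomes on the 5′UTR changed beyond the change on the CDS. Of the 33 genes, 21 had at least 20 5′UTR reads over the 4 libraries and enough CDS reads. PSME3 was lower and no gene was higher (edgeR's quasi-likelihood test on 5′UTR reads relative to CDS reads, and none higher at an unadjusted p below 0.05 or with DESeq2). Over all 3656 transcripts tested, 1.7% were lower. The median log2 fold change was -0.57 over the proteasome genes and -0.16 over all transcripts, and 17 of the 21 genes were below 0, as were 62.8% of all transcripts. At an unadjusted p below 0.05, 10 were lower, beside 11.5% of all transcripts. In 14 of the 21 genes both treated libraries were below both untreated ones, which held for 31.6% of all transcripts tested. Without untreated replicate A or B, 5 or 6 genes were lower, beside 13.8% or 5.19% of all transcripts. Without G418 replicate A or B, PSME3 was no longer called, and the calls over all transcripts fell as well. The median log2 fold change was then -0.49 or -0.52 over the proteasome genes tested and -0.18 or -0.22 over all transcripts.

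5′UTR reads of PSME3 numbered 341 and 160 in untreated and 275 and 241 in G418-treated cells. Per 100 CDS reads these were 21.7 and 27.2 in untreated and 14.3 and 14.4 in G418-treated cells (-0.75 ± 0.15, adjusted p = 0.0223, edgeR). The treated libraries lay below the untreated ones, in the gene whose CDS counts rose. Its annotated 5′UTR is 508 nt long and holds 4 upstream AUG triplets. With PSMD14 it carried the most 5′UTR reads per CDS read of the group. PSMD14 has a 5′UTR of 317 nt with 1 upstream AUG, and its value was 21.7 and 20.4 in untreated and 23.0 and 21.02 in G418-treated cells per 100 CDS reads (0.06 ± 0.15, adjusted p = 0.906, edgeR), with overlapping groups. Without G418 replicate A its log2 fold change was -0.01 (adjusted p = 0.999, edgeR).

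The next highest of the tested genes were PSMD9, PSMD3, PSMB3 and PSMB2, none of which passed the test. PSMD9 had 9.01 and 12.8 in untreated and 8.70 and 7.22 in G418-treated cells per 100 CDS reads. PSMD3 had 8.14 and 12.2 in untreated and 7.24 and 6.14 in G418-treated cells. PSMB3 had 7.04 and 5.65 in untreated and 4.45 and 4.90 in G418-treated cells, and so its 5′UTR reads were -0.46 ± 0.20 on the log2 scale relative to CDS reads that were themselves lower. PSMB2 had 5.11 and 5.48 in untreated and 3.57 and 3.40 in G418-treated cells. In these 4 genes the treated libraries lay below the untreated ones, with adjusted p-values from 0.201 to 0.663 by edgeR.

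By role, all 5 α-ring genes had both treated libraries below both untreated ones, with log2 fold changes from -0.95 (PSMA6) to -0.57 (PSMA4). PSMA1, for example, had 4.40 and 4.49 in untreated and 2.13 and 2.73 in G418-treated cells per 100 CDS reads. Their adjusted p-values were 0.0918 to 0.287 by edgeR, and all 5 were lower at an unadjusted p below 0.05, with 0 called by DESeq2. PSMB5 and PSMC5 were the tested genes with both treated libraries above both untreated ones, and the 5′UTR reads of PSMB5 numbered 12 and 4 in untreated and 16 and 11 in G418-treated cells. PSMB9, PSMD4, PSMD5, PSMD8 and PSMD11 had no 5′UTR read in any library. Summed over the 33 genes, 5′UTR reads per 100 CDS reads were 3.22 and 3.46 in untreated and 2.495 and 2.496 in G418-treated cells, and over all transcripts 4.84 and 5.57 against 4.71 and 4.84. Without PSME3 the sums averaged 2.91 and 2.14.

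**Figure D5:**
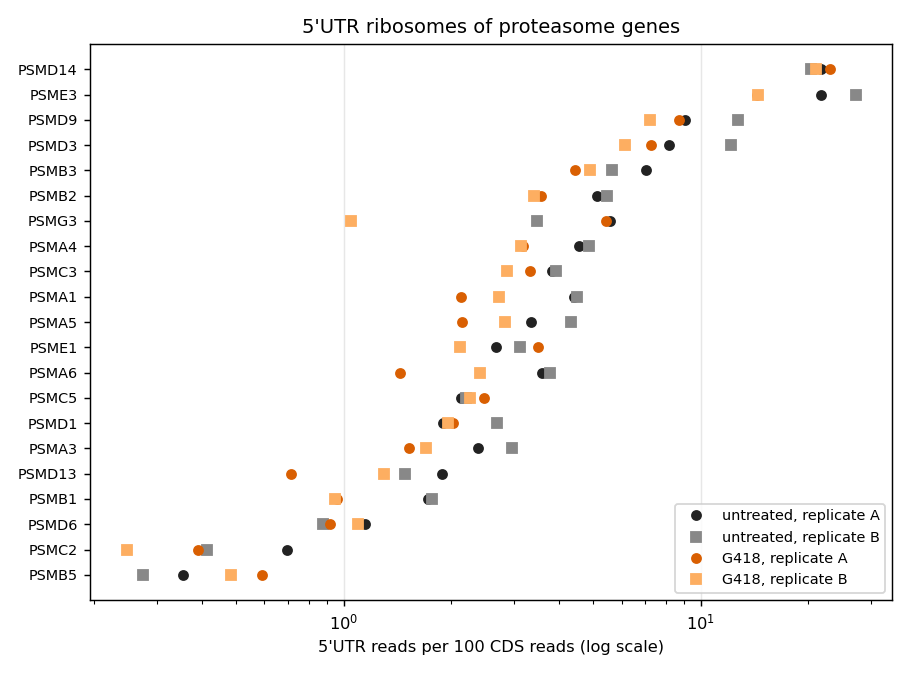
5′UTR reads per 100 CDS reads (log axis) of the 21 proteasome genes tested, in each of the 4 libraries, sorted by their value over all libraries. PSMD14 and PSME3 stand at 14.3 or more in every library, and for 14 of the 21 genes both orange points lie to the left of the black and grey points.

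Genes that work with the proteasome were taken from lists. Of 29 listed partners, which include shuttle factors, deubiquitinases and the NFE2L1 pathway, 20 were in all 4 tables. None of them was lower in CDS counts by edgeR, beside 3.21% of all transcripts, and their median log2 fold change was 0.02. At an unadjusted p below 0.05, 3 were lower, beside 10.1% of all transcripts. DESeq2 called 0 lower, beside 1.65%. Without untreated replicate A or B some partners were called lower, and the calls over all transcripts rose as well. The median over the partners was then 0.05 or 0.04. UBQLN4, a shuttle factor that carries ubiquitylated proteins to the proteasome, was higher by edgeR but was not called by DESeq2 or without either G418 replicate. It had 288 and 127 CDS counts in untreated and 455 and 342 in G418-treated cells (0.55 ± 0.12, adjusted p = 0.00423, edgeR). NFE2L1 itself was at 0.06 ± 0.11 (adjusted p = 0.782, edgeR). RRTS rose in 11 of the 14 partners tested, beside 82.6% of all transcripts. The number was 5 with DESeq2, beside 49.8% of all transcripts, and 7 with the replicate block, beside 65.5%. Without untreated replicate A fewer were called, and the median log2 fold change was 1.98 over the partners tested and 4.79 over all transcripts.

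Lower CDS counts were also found for UBB and BAG6, from a list of ubiquitin genes and their partners. The ubiquitin gene UBB, whose repeats share sequence with other ubiquitin genes so that its reads are uncertain, was at -0.36 ± 0.08 (adjusted p = 0.00328, edgeR). BAG6, a chaperone for proteins bound for degradation, was at -0.30 ± 0.09 (adjusted p = 0.0267, edgeR) and was not called by DESeq2. Neither gene was called without either G418 replicate. RRTS rose in BAG6, UBB and the ubiquitin-activating enzyme UBA1, which DESeq2 did not call.

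The core of the antioxidant response element, TGANNNNGC on either strand, is bound by transcription factors of the NFE2L1 family. It was searched in RefSeq promoters of 300 bases (GRCh38.p14), which were matched for 29 of the 33 genes. It was present in 18 of the 29 (62.1%), in 42.1% of the 6889 promoters of genes in all 4 tables and in 42.1% of all 27305 promoters. A match is a description of the letters and not of binding.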

How the data were processed

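The deposited tables, 1 for each library, hold values that the authors made from RPFs of 28 to 35 nt aligned to hg38 with STAR and GENCODE version 30. Reads with several alignments were kept by the authors at 1 place, so genes with near-identical copies, such as processed pseudogenes, are uncertain. The deposited counts are RPFs per region, without normalization. The deposited RPM values are RPFs scaled to the mapped reads of each library, and the deposited RPKM densities are RPM per kilobase of region. As ratio values the authors deposited RRTS and the occupancy of the whole 3′UTR. A further deposited column, 5′UTR density, was classed as a score and left out. Lengths of regions are as the authors gave them.

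Whole reads were recovered from RPM (100% of values deviated from whole reads by at most 0.00023), and deposited CDS counts were equal to them or 1 below. CDS counts were tested as deposited with edgeR 4.0.16 (R 4.3.3, TMM, its filter on low counts), and recovered reads of extensions (at least 10 over the libraries, 128 mRNA reads in each condition) and of 5′UTRs (at least 20, and 128 CDS reads) with log(CDS reads + 0.5) as the offset. p-values were adjusted over all transcripts with a threshold of 0.05. The self-check used simulated data. Alternatives were DESeq2 1.42.0, a replicate block, other scalings, minima and regions, recovered reads or deposited counts, and each library left out. Intervals are exact at 95% and cover counting error only. Other software was Python 3.11.15, pandas 2.3.3, numpy 2.4.6, scipy 1.17.1 and matplotlib 3.10.9. Coordinates and stop sequences come from GENCODE version 44, matched for 32 genes.

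The genes, lists and tests were chosen with earlier results of these data known. Named with values in each library are genes past the threshold in CDS counts or 5′UTR reads and moving alike within both lettered pairs, the 8 highest and 6 lowest RRTS with G418, the 6 with most 5′UTR reads per CDS read, and the highest untreated CDS density of each role. Some genes of the lists of partners and ubiquitin genes are not reported here. C-terminal protein ends were not analysed here, nor were proteasome genes that are not listed in all tables.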

Additional observations from a re-analysis of the deposited data

How the results depend on the processing

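Of the values given for single genes, 242 kept their direction and their side of the threshold over the alternatives, 30 lost and 3 gained a call, and 3 changed sign. The last were the RRTS of PSMB3 without G418 replicate B (-0.60, and up to 1.32 without another library), the RRTS of PSMD11 without untreated replicate A (-0.68, and up to 1.36), and the 5′UTR reads of PSMD14 without G418 replicate A (-0.0064, and up to 0.12). Leaving out each library in turn gave 0 to 3 genes higher and 1 to 18 lower in CDS counts, and 0 to 6 lower in 5′UTR reads. A condition left with 1 library was assumed to vary like the other. Scaling to library totals gave 2 higher and 2 lower in CDS counts, and DESeq2 1 and 4. Without a minimum of 5′UTR reads, 3 genes were lower (PSMA1, PSMA4 and PSME3), beside 2.62% of all transcripts. DESeq2 called 16 RRTS rises in place of 22. The causes of these differences were not tested.

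Summed CDS counts without PSMA4 were 11888 in untreated and 11423 in G418-treated cells, in CPM. The aggregate RRTS was 0.270% and 2.36% over the whole 3′UTR, 2.07% and 16.7% without PSMA4, and 1.30% and 15.0% as the median over genes in each library, averaged over the 2 libraries (a median of pooled scores gives other values). By stop codon, omissions added after the data were seen gave 2.87% and 15.1% for UAA genes without PSMA3 and 9.05% with G418 for UAG genes without PSMA4. The 5′UTR sums were 2.91 and 2.14 without PSME3, and 2.47 in G418-treated cells from the deposited counts. With the replicate letter as a replicate block, 8 genes were lower and 1 higher in CDS counts, beside 5.32% and 7.28% of all transcripts. In RRTS 20 rose (PSMA6 and PSME3 were not called), beside 65.5% of all transcripts. In 5′UTR reads 1 was lower, beside 2.3% of all transcripts. The labels do not say that a letter marks a shared culture or day, and the A minus B differences of the conditions correlated at r = 0.14 across 8494 transcripts, which are not independent, so the letters were not taken to pair the samples. With 2 libraries a condition, an exact permutation test of a single value cannot go below p = 0.333, and genes with few extension reads, such as PSMD5 with none, allow no statement on readthrough.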

Other observations

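Beyond the first in-frame 3′TC, the proteasome genes together held 65 and 19 reads in untreated and 414 and 338 in G418-treated cells. All transcripts together held 15788 and 5408 in untreated and 36919 and 29744 in G418-treated cells. These reads are not scaled to the depth of the libraries. The genes named here were chosen after their values were seen. PSMD11, a lid subunit with little change before its first 3′TC, had, as read counts in the 705 nt behind it, 1 and 1 in untreated and 53 and 51 in G418-treated cells, against 3 and 5 in untreated and 7 and 8 in G418-treated cells before it. Over its whole 3′UTR the log2 fold change was 3.09 ± 0.38 (adjusted p = 4.32e-15, edgeR's quasi-likelihood test). Behind its first 3′TC, PSMB2 had 12 and 5 in untreated and 103 and 80 in G418-treated cells. PSMA4 had 8 and 2 in untreated and 39 and 37 in G418-treated cells, and PSME3 had 3 and 0 in untreated and 36 and 23 in G418-treated cells. In each of these genes both treated libraries lay above both untreated ones, as they did in the total over all transcripts. PSMD6 had none in any library.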
